A study of Mus musculus with 48 samples.

Results

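MHC class I molecules and the proteins that load them with peptide are described here by 10 genes measured in whole mouse tibia. They are the classical heavy chains H2-K1 and H2-D1, the Qa heavy chains H2-Q4, H2-Q5, H2-Q6, H2-Q7 and H2-T23, the light chain B2m, and Tap1 and Tap2, the subunits of the peptide transporter. The genes were picked from the 29801 genes listed with their levels in these same mice known, so their differences between groups are given as a description, with a standard error (SE) and without a p-value. All 10 were found by name, and all 10 were among the 13590 genes that averaged at least 1 FPKM, a read count scaled to transcript length and to the size of the library.

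RNA came from 12 male C57Bl6J mice in 4 groups of 3. Young AL mice, given as 10 weeks old in the labels, and aged AL mice, given as 15 to 18 months old, had free access to the NIH-31 control diet. Young CR and aged CR mice received a micronutrient-fortified version of this diet for 8 weeks, with restriction at 10% in week 1, 20% in week 2 and 40% from week 3 on. By the study's methods these are ages at the start of the diet, with a range around the labelled age in the young mice, so the mice were about 8 weeks older when the bones were taken. Diet formula and restriction therefore cannot be told apart, all mice were male, and the sources used here do not say whether the sequenced tibiae had been operated on. The 48 labelled libraries are technical repeats, 4 from each mouse, and each mouse counts once, as a single column of values. Muscle and connective tissue were removed from the bones, and marrow was not. Muscle RNA was still present in every mouse, since 6 skeletal muscle markers summed to 132 to 967 FPKM.

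The labelled tissue was checked against its markers. Bglap, which encodes osteocalcin, was at 111 to 820 FPKM, and all 8 osteoblast and osteocyte markers were above 0 in every mouse. The marrow was in the samples too, since the B cell gene Cd79b was at 44.1 to 124 FPKM. In such bulk RNA, fewer cells of a type and less RNA per cell cannot be told apart. The FPKM had been quantile normalized, so a value stands for a gene's rank within its mouse and equal ranks give equal values. 2 mice stood apart from their groups. Aged AL mouse 14 had the lowest B cell and osteoblast lists and the highest skeletal muscle list of all mice, with mean deviations of -1.19, -1.13 and 1.63 on the log2 scale. Aged CR mouse 5 had the highest interferon response list, at 1.36, against -0.62 and -0.50 in the other aged CR mice. Values in aged mice are therefore, for the main results, also given without one or both of these mice.

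Class I molecules are made of a polymorphic heavy chain and the invariant light chain B2m, and nearly all nucleated cells carry them. Peptides cut by the proteasome enter the endoplasmic reticulum through the TAP transporter and are fitted into the heavy chain by a loading complex, after which the molecule shows them to CD8 T cells at the cell surface. Heavy chains of the Qa group are less polymorphic and can also be ligands of natural killer cell receptors, and most genes of the pathway are known to be induced by interferon through response elements in their promoters.

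The members lie in the MHC on chromosome 17, except for B2m on chromosome 2. In GENCODE M21 on GRCm38, H2-K1 spans chr17:33996017-34000347 (minus strand), Tap1 chr17:34187553-34197225, Tap2 chr17:34203527-34216321, H2-D1 chr17:35262730-35267499 and H2-T23 chr17:36029773-36032855 (minus strand). H2-Q4 to H2-Q7 lie side by side on the plus strand within 64157 bases, at chr17:35379617-35385290, chr17:35394126-35397800, chr17:35424850-35430055 and chr17:35439155-35443773. B2m spans chr2:122147686-122153083. H2-Q5 is annotated as a polymorphic pseudogene and the others as protein coding. Neighbours in sequence can share reads. H2-Q5, H2-Q6 and H2-Q7 are 94.9% to 96.6% identical over their coding sequence, against 89.4% to 90.8% between each of them and H2-Q4 and 91.5% between H2-K1 and H2-D1. Of the different 75-base stretches of their transcripts, 21.2% in H2-Q5, 17.9% in H2-Q6 and 17.0% in H2-Q7 also occurred in transcripts of other genes. The shares were 7.02% in H2-Q4, 5.91% in H2-T23, 5.4% in H2-D1 and 3.1% in H2-K1, and 0 in B2m, Tap1 and Tap2. The split of FPKM among H2-Q5, H2-Q6 and H2-Q7 is therefore uncertain, more so than that of the other members.

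The upstream sequences of the members are shown as a description, and their part in the differences between the diets was not tested. RefSeq promoter windows (250 bases before to 50 after the start, GRCm38.p6) were found for 8 of the 10 members, and not for H2-Q5 and Tap2. Capitals mark, on either strand, the NF-kappa-B core GGGGATTCC, the interferon response cores GAANNGAAA and GAAANNGAA, the CRE core TGACG and the CCAAT box CCAAT. The core GAANNGAAA was added to the search after the sequences had been seen. The stretches run 5′ to 3′ toward the start site and end before it. They come from chr17:34000348-34000467 (minus strand), chr17:35262914-35263038 (plus strand), chr17:35379434-35379558 (plus strand), chr17:35424668-35424792 (plus strand), chr17:35439012-35439136 (plus strand), chr17:36032730-36032854 (minus strand) and chr2:122147518-122147642 (plus strand), in this order.
H2-K1: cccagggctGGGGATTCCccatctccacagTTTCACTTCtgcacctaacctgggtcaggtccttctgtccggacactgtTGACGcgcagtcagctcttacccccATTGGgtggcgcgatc
H2-D1: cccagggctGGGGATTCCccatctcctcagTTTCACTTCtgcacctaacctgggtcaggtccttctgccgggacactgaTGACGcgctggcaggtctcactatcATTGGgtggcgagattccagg
H2-Q4: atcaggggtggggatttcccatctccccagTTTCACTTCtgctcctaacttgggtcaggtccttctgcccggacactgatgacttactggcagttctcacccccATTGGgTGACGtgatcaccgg
H2-Q6: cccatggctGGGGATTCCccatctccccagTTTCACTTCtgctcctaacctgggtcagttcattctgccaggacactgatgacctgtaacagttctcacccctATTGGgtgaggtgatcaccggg
H2-Q7: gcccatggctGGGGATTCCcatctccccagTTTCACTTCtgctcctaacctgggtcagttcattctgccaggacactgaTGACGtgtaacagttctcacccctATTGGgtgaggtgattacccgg
H2-T23: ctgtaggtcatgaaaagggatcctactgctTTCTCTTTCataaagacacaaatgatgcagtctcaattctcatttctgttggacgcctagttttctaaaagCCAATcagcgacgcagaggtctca
B2m: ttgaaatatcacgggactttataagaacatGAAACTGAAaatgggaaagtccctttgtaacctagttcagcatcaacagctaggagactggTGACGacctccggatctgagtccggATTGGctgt
H2-K1, H2-D1, H2-Q6 and H2-Q7 held GGGGATTCC, which 0.25% of all 32851 promoters in the table hold. The same 4 genes and H2-Q4 held GAANNGAAA, present in 7.52% of promoters. H2-T23 and B2m held the other core, GAAANNGAA, present in 8.56% of promoters, and H2-T23 held neither the NF-kappa-B core nor the CRE core. The CRE core occurred in 20.8% and the CCAAT box in 37.4% of promoters. Tap1, whose start lies 226 bases from that of Psmb9 on the opposite strand, held the CRE core and the CCAAT box and none of the other 3. These are matches of letters and were not tested as binding sites.

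FPKM are scaled to transcript length, so the order of genes within a mouse can be compared. The places of H2-Q5, H2-Q6 and H2-Q7 in this order are less certain, since the split of FPKM among them is uncertain. B2m was the highest member in all 12 mice and ranked between 25 and 90 among all listed genes. H2-D1 was above H2-K1 in all 12 mice, and the ranges of the pair overlapped in young AL and in aged CR mice. H2-T23 followed at 94.0 to 138 FPKM, below H2-K1 and above H2-Q4 in every mouse. Below them, H2-Q4 was above H2-Q6 in 9 of 12 mice and their ranges were apart in young CR mice only. Tap2, H2-Q5 and Tap1 came last and could not be ordered, since Tap2 was above H2-Q5 in 6 and H2-Q5 above Tap1 in 7 of 12 mice. The plot of the members by mouse shows this order and the lower levels in young CR mice.

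**Figure D1:**
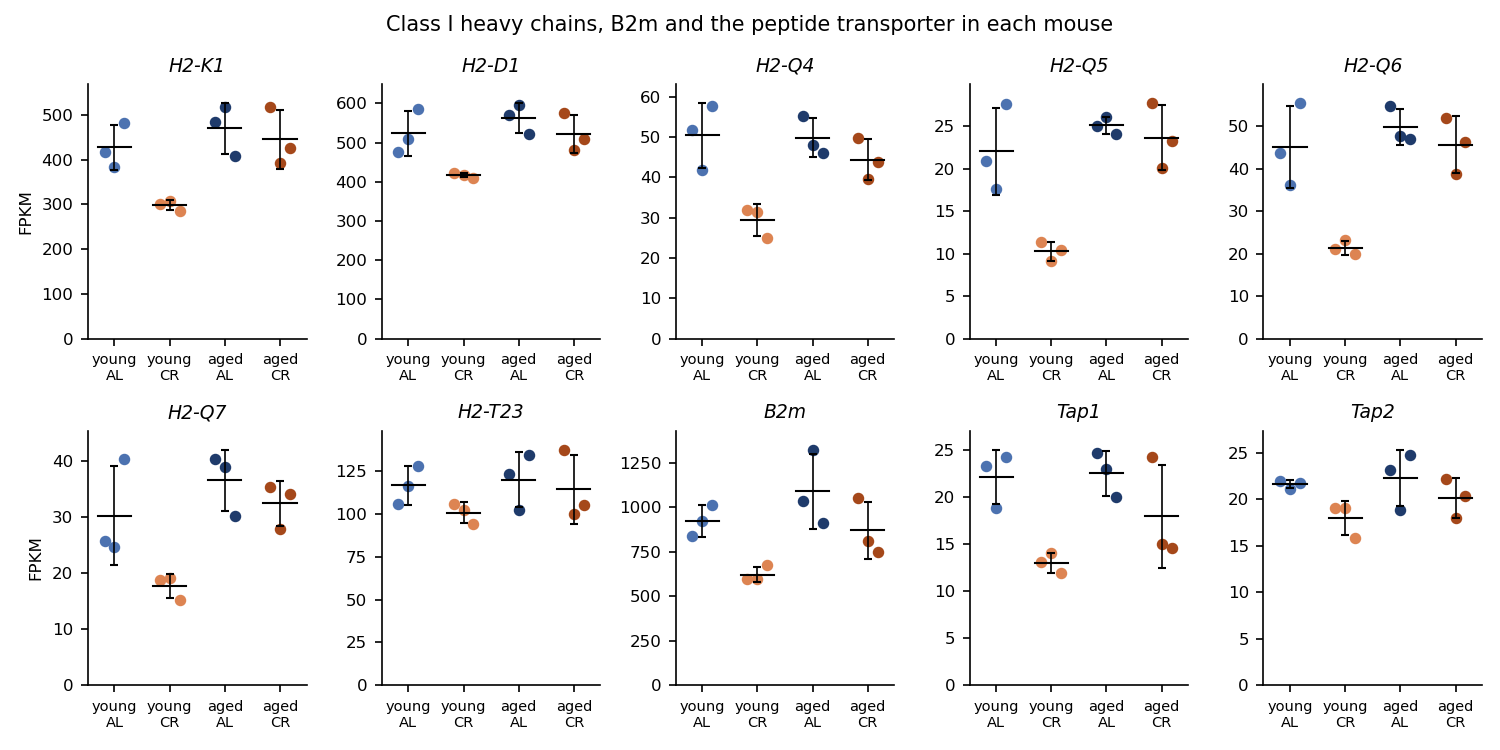
FPKM of the 10 genes in each mouse (points) by group, with the group mean (line) and SD (bar, n = 3), each axis starting at 0. All 3 young CR mice lie below all 3 young AL mice in every panel except H2-T23, while the aged groups overlap in every panel.

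In young mice, CR went with lower levels of the class I genes, and most so for the Q region heavy chains H2-Q5 and H2-Q6. The log2 differences ran from -1.02 to -0.21 with a median of -0.64, against 0.01 over all 13590 genes tested. In 9 of the 10 genes every CR mouse was below every AL mouse, as was so for 9.38% of all genes tested. Limma called 1 member at an adjusted p under 0.05, H2-Q6, where 0.0662% of all genes tested were called, and 9 members were lower at an unadjusted p under 0.05, as were 5.24% of all genes. The genes were chosen with the values of all 4 groups known, so nothing is read from these counts. Counts of members called in the comparisons below are likewise a description. Of all genes, 9 were called. The count of called members was 2 without aged AL mouse 14 (44 of all genes), 3 without aged CR mouse 5 (24 of all genes) and 0 without any single one of the other mice except aged CR mouse 6.

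The classical heavy chains present peptides to CD8 T cells. H2-K1 was at 418, 383 and 482 FPKM in the young AL mice and at 302, 308 and 286 FPKM in the young CR mice. The groups did not overlap, and the log2 difference was -0.51 (SE 0.12). H2-D1 was at 476, 508 and 587 FPKM under AL and at 423, 418 and 411 FPKM under CR. These groups did not overlap either, with a smaller log2 difference of -0.32 (SE 0.09). The H2-D1 to H2-K1 ratio was thereby 1.36 to 1.44 in young CR mice and 1.11 to 1.33 in the mice of the other 3 groups.

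Of the Q region genes, H2-Q5 and H2-Q6 stood lowest relative to AL. H2-Q6, which encodes a heavy chain of the Qa-2 group, was at 43.7, 36.2 and 55.4 FPKM in young AL mice and at 21.2, 23.1 and 19.8 FPKM in young CR mice, a log2 difference of -1.02 (SE 0.15). Every CR mouse was well under the lowest AL mouse. H2-Q5, the gene annotated as a pseudogene, was at 20.9, 17.6 and 27.6 FPKM under AL and at 11.4, 9.11 and 10.4 FPKM under CR, a difference of -1.01 (SE 0.15). For H2-Q6 and H2-Q5 the geometric mean of FPKM + 1 in young CR mice was thereby 0.492 and 0.496 of that in young AL mice. H2-Q4 was at 51.8, 41.9 and 57.6 FPKM under AL and at 32.0, 31.4 and 24.9 FPKM under CR, a difference of -0.75 (SE 0.14). H2-Q7, also of the Qa-2 group, was at 25.6, 24.5 and 40.3 FPKM under AL and at 18.7, 19.1 and 15.2 FPKM under CR, a difference of -0.71 (SE 0.18). In both genes the groups were apart, and young AL mouse 11 was the highest of the 3 AL mice, as it was for H2-Q5 and H2-Q6.

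H2-T23, which encodes Qa-1, the ligand of CD94/NKG2 receptors on natural killer cells, differed from its Q region relatives. It was at 106, 116 and 128 FPKM in young AL mice and at 106, 103 and 94.0 FPKM in young CR mice. The groups overlapped by a single CR mouse, and the log2 difference was -0.21 (SE 0.13).

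B2m, the light chain shared by all class I molecules, was at 835, 922 and 1009.83 FPKM in young AL mice and at 596, 596 and 672 FPKM in young CR mice. The groups were apart, with a log2 difference of -0.57 (SE 0.15). Tap1 was at 23.3, 18.9 and 24.3 FPKM under AL and at 13.1, 14.1 and 11.9 FPKM under CR, a difference of -0.72 (SE 0.17). Its partner Tap2 was at 21.97, 21.1 and 21.8 FPKM under AL and at 19.1, 19.1 and 15.9 FPKM under CR, a difference of -0.26 (SE 0.11). Both subunits were apart between the groups. The transporter subunits were thus not lower to the same degree, and the Tap1 to Tap2 ratio was 0.894 to 1.12 in young AL mice and 0.686 to 0.750 in young CR mice.

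**Figure D2:**
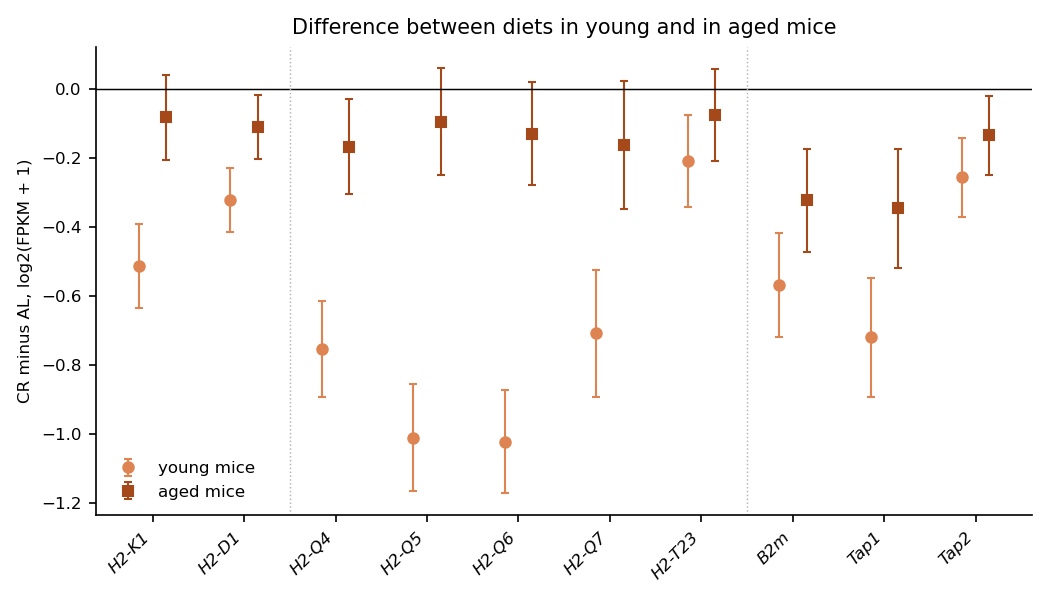
Log2 difference of CR and AL mice for each gene (points) with limma's SE (bars), in young mice (circles) and in aged mice (squares); dotted lines part classical, Qa, and light chain and transporter genes. In young mice the Q region genes lie between -1.02 and -0.71 and H2-T23 at -0.21, and in aged mice all 10 lie between -0.35 and -0.07.

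In aged mice the differences between the diets were smaller in their estimates. All 10 log2 differences were below 0, from -0.35 to -0.07 with a median of -0.13, and the groups overlapped for all 10 (0 of 10, against 5.33% of all genes tested). Limma called 0 members and 0% of all genes tested, and 0 members were lower at an unadjusted p under 0.05, as were 3.22% of all genes, and 0 were higher, as were 4.5%. The study's own kind of test, with unequal variances on FPKM and an unadjusted p under 0.05, also gave 0 members here, where it gave 3.58% of all genes in either direction, and 5 members in young mice, all lower, as it gave 4.17% of all genes.

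H2-K1 was at 484, 518 and 408 FPKM in aged AL mice and at 518, 392 and 426 FPKM in aged CR mice, a log2 difference of -0.08 (SE 0.12). H2-D1 was at 571, 596 and 522 FPKM under AL and at 576, 482 and 508 FPKM under CR, a difference of -0.11 (SE 0.09). For both classical genes aged CR mouse 5 lay among the AL mice. H2-Q6 was at 54.6, 47.6 and 47.0 FPKM under AL and at 52.0, 38.6 and 46.3 FPKM under CR, a difference of -0.13 (SE 0.15). H2-Q5 was at 25.0, 26.1 and 24.1 FPKM under AL and at 27.7, 20.0 and 23.2 FPKM under CR, a difference of -0.09 (SE 0.15). Even the lowest aged mouse thus had more H2-Q5 and H2-Q6 than any young CR mouse. H2-Q4 and H2-Q7 had means of 49.8 ± 4.87 and 36.4 ± 5.47 FPKM under AL and of 44.4 ± 5.10 and 32.4 ± 3.99 FPKM under CR (SD, n = 3), and H2-T23 had 120 ± 16.3 and 114 ± 20.3 FPKM.

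B2m and Tap1 had the largest differences in aged mice. B2m was at 1034, 1322 and 913 FPKM under AL and at 1050.15, 812 and 748 FPKM under CR, a difference of -0.32 (SE 0.15). Tap1 was at 24.7, 22.98 and 19.97 FPKM under AL and at 24.2, 15.0 and 14.6 FPKM under CR, a difference of -0.35 (SE 0.17). In Tap1, 2 of the 3 CR mice were below all AL mice and mouse 5 was among them. Tap2 had means of 22.3 ± 3.05 FPKM under AL and 20.2 ± 2.14 FPKM under CR. Without aged CR mouse 5 the median was -0.22 and the 10 differences ran from -0.57 in Tap1 to -0.18 in H2-D1, with -0.47 in B2m and -0.23 in H2-Q6. B2m and Tap1 were then lower at an unadjusted p under 0.05, which 1143 of 13600 genes passed in either direction. Without both this mouse and aged AL mouse 14 the differences ran from -0.55 in Tap1 to -0.12 in H2-K1. At that threshold 4 members, H2-T23, B2m, Tap1 and Tap2, were then lower, and 1490 of 13583 genes passed in either direction. Without aged CR mouse 6 H2-K1, H2-Q5 and H2-T23 were at 0.01, 0.02 and 0.01, so the direction in aged mice rested on single mice for these genes, and without aged AL mouse 15 H2-T23 was at 0.01.

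The difference between the diet effects was itself estimated as the interaction of diet and age. It was above 0 for all 10 genes, with a median of 0.40 against -0.01 over all genes tested. It was largest for H2-Q5 at 0.92 (SE 0.22) and H2-Q6 at 0.89 (SE 0.21), followed by H2-Q4 at 0.59 (SE 0.20), H2-Q7 at 0.55 (SE 0.26) and H2-K1 at 0.43 (SE 0.17). Limma called 0 members and 0% of all genes at an adjusted p under 0.05. At an unadjusted p under 0.05 it gave 4 members, as it did for 2.37% of all genes in the same direction. Nothing is read from these counts of members. With 0 of all 13590 genes called, a difference between the ages in the diet effect was not shown for any gene. For Tap2, H2-T23, H2-D1, B2m and Tap1 the interaction was within 2 SE of 0, at 0.12 (SE 0.16), 0.13 (SE 0.19), 0.21 (SE 0.13), 0.25 (SE 0.21) and 0.37 (SE 0.24). Without aged CR mouse 5 the median was 0.23, with 0.80 in H2-Q5 and H2-Q6, 0.15 in Tap1, 0.10 in B2m and -0.01 in H2-T23, and without both mice it was 0.32. At an unadjusted p under 0.05, 3 members passed in each of these, where 519 of 13600 and 724 of 13583 genes passed in either direction. Over both ages the diet difference had a median of -0.44, with 0 members called where 0.258% of all genes were, and 9 lower at an unadjusted p under 0.05, where 6.45% were. Leaving out aged CR mouse 5 called 5 members there, namely Tap1, H2-Q4, H2-Q5, H2-Q6 and B2m, where 222 of all genes were called, and leaving out aged AL mouse 14 called H2-Q6, where 146 were. With all mice 35 genes were called.

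With age, the class I genes were higher mainly where CR mice were compared. Over both diets, limma called H2-Q5 and H2-Q6 higher in aged mice, at log2 differences of 0.66 (SE 0.11) and 0.60 (SE 0.11), where 0.758% of all genes were called. At an unadjusted p under 0.05, 7 members were higher, where 6.8% of all genes were. Both calls were lost without any single mouse other than young AL mouse 11, young CR mouse 3, aged AL mouse 14 and aged CR mouse 6. As the members were picked with these values known, nothing is read from these calls. Within AL mice the aged and young groups overlapped for all 10 members, with log2 differences from -0.01 to 0.29 (5.59% of all genes were higher without overlap). Within CR mice 8 of the 10 were higher without overlap, where 7.9% of all genes were, at up to 1.12 (SE 0.15) for H2-Q5 and 1.05 (SE 0.15) for H2-Q6. H2-T23 and Tap2 overlapped here too, at 0.17 (SE 0.13) and 0.16 (SE 0.11). These comparisons share the young CR mice with the diet comparison, so they are the same low values seen from the other side. In 8 of the 10 members all 3 young CR mice were below all 9 other mice, the exceptions being H2-T23 and Tap2. In Tap1 and B2m aged CR mice 6 and 7 came next, below every AL mouse.

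The classical and Qa heavy chains were then compared within each mouse. The mean of log2(FPKM + 1) over H2-K1 and H2-D1 exceeded that over the 5 Qa genes by 3.38, 3.51 and 3.27 in young AL mice and by 3.65, 3.70 and 3.79 in young CR mice. It was 3.31, 3.52 and 3.29 in aged AL mice and 3.39, 3.46 and 3.36 in aged CR mice. The 3 young CR mice were above all other mice, by 0.32 on average over the young AL mice, while the difference between the diets in aged mice was 0.03, and 0.10 without aged AL mouse 14. This result depended on how the genes were summarised. As a log2 ratio of summed FPKM, in which the abundant H2-T23 weighs most among the Qa genes, the young difference was 0.14 and the aged groups of 1.72 to 2.08 and 1.86 to 1.95 spanned most of the young CR range of 1.94 to 2.08. Without H2-T23 the young difference was 0.46.

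H2-Q4 to H2-Q7 together made up 12.4%, 10.7% and 13.1% of heavy chain FPKM in young AL mice and 9.11%, 9.08% and 8.17% in young CR mice. In aged AL mice they made up 12.96%, 11.7% and 12.2%, and in aged CR mice 11.8%, 11.5% and 12.4%. All 3 young CR mice were below all 9 others. With H2-T23 included the Qa share was 20.96% to 22.4% in young AL and 19.1% to 20.7% in young CR mice, and 19.1% to 23.3% in aged AL mice, which overlapped with both. The share of H2-T23 alone was 10.9% to 11.6% in young CR mice, 9.27% to 10.3% in young AL mice and 7.44% to 11.1% in aged AL mice. Within the Qa group, the Q region genes were thus a smaller and H2-T23 a larger part of the heavy chain transcripts in young CR than in young AL mice. B2m per heavy chain FPKM was 0.731 to 0.818 in young AL and 0.652 to 0.781 in young CR mice, and these ranges overlapped.

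**Figure D3:**
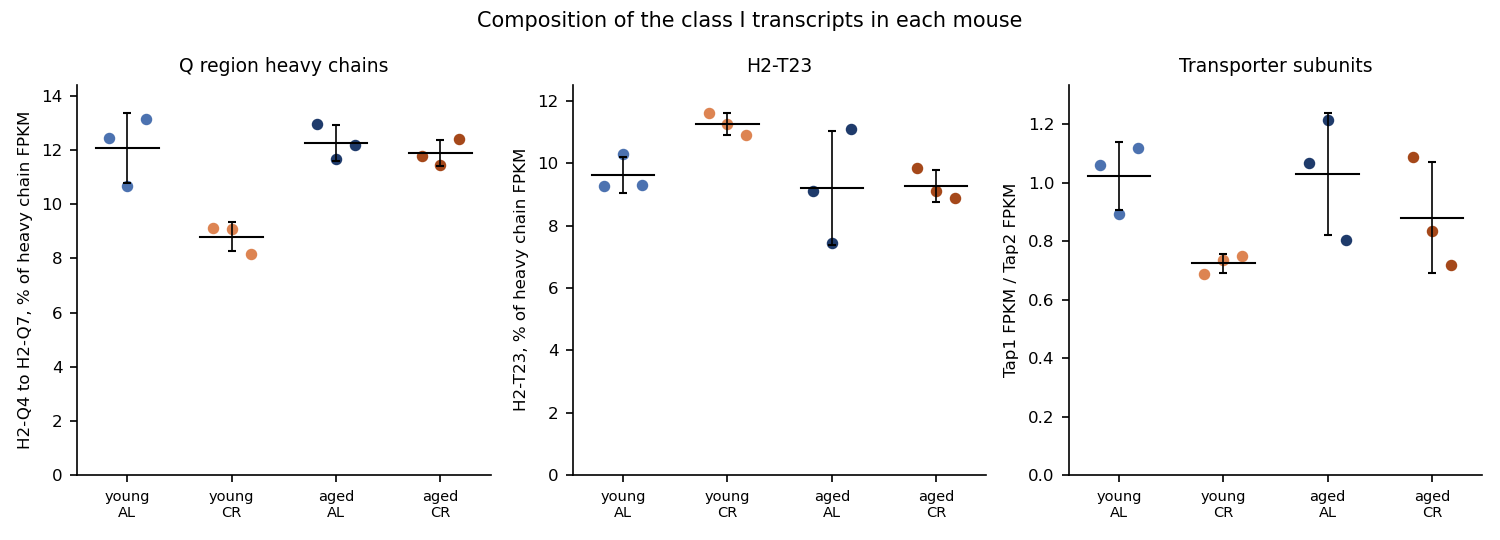
Share of H2-Q4 to H2-Q7 in the FPKM of the 7 heavy chains (left), share of H2-T23 (middle) and ratio of Tap1 to Tap2 (right) in each mouse (points), with group mean (line) and SD (bar, n = 3), axes starting at 0. The Q region share of young CR mice, at 8.17% to 9.11%, lies below that of the 9 other mice, and the other measures of young CR mice overlap with at least 1 aged group.

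The genes that act beside the members in the pathway had, in young mice, a median difference nearer 0 than the members. The members were chosen with these values known, so this contrast can follow from that choice and nothing is read from it. Of 15 peptide loading and processing genes, all tested, limma called 0 in any of the 5 comparisons. In young mice their median log2 difference was -0.04, 1 was higher at an unadjusted p under 0.05 (Sec61a1, a translocon subunit, at 0.21), as were 5.79% of all genes, and the unequal-variance test gave 1 other gene, Tapbp. Tapbp encodes tapasin, which bridges TAP and the heavy chain, and it was at 39.7 ± 1.93 FPKM in young AL and 34.5 ± 0.769 FPKM in young CR mice, a difference of -0.19 (SE 0.11). The immunoproteasome subunits Psmb8, Psmb9 and Psmb10, which replace catalytic subunits of the constitutive proteasome, had differences of -0.24 (SE 0.17), -0.30 (SE 0.20) and -0.16 (SE 0.18) in young mice and of -0.27 (SE 0.17), -0.36 (SE 0.20) and -0.06 (SE 0.18) in aged mice. None of them differed beyond 2 SE in either age. Without aged CR mouse 5 the aged differences of Psmb8 and Psmb9 were -0.41 and -0.58. Both were at an unadjusted p under 0.05, as were 1143 of 13600 genes. Their constitutive counterparts Psmb5, Psmb7 and Psmb6 were at 0.18, 0.05 and -0.04 in young mice. In this list 3 chaperone and translocon genes had the smallest unadjusted p for age, with differences of 0.21 (SE 0.06) in Sec61a1, 0.42 (SE 0.12) in Hspa5 and 0.28 (SE 0.09) in Calr, and adjusted p-values of 0.138, 0.145 and 0.181 by limma.

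Of 17 class I regulators limma called 0 in any comparison. Their median log2 difference in young mice was -0.02, with 10 genes below 0 and 7 above. In aged mice it was -0.07, with 13 below 0 and 4 above. In young mice 4 regulators were lower at an unadjusted p under 0.05, as were 5.24% of all genes. These were Irf1, Irf8, Rfx5 and Stat2, the last named after its value was seen, and the unequal-variance test gave Rfx5 and Stat2. Rfx5, a subunit of the factor that binds the X box of MHC promoters, was at 3.001 ± 0.295 FPKM in young AL and 2.102 ± 0.133 FPKM in young CR mice, with differences of -0.37 (SE 0.11) in young and -0.23 (SE 0.11) in aged mice. Irf1, an interferon-inducible activator of class I genes, was at -0.21 (SE 0.08) and -0.17 (SE 0.08), and Irf8 at -0.25 (SE 0.08) and -0.22 (SE 0.08). All 3 were lower in their estimate in both ages, and their interactions of 0.14, 0.05 and 0.03 were within their SE. Without aged CR mouse 5 the aged differences of Rfx5, Irf1 and Irf8 were -0.23, -0.23 and -0.27, and without aged AL mouse 14 that of Rfx5 was -0.14. Rfxap, another subunit of the same factor, was at 0.16 (SE 0.08) and 0.13 (SE 0.08). Nlrc5, the transactivator of class I promoters, was at 6.59 ± 1.86 FPKM in young AL and 5.17 ± 0.441 FPKM in young CR mice, a difference of -0.27 (SE 0.22) that was within its error.

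Of 27 other class I genes, 24 are listed, 13 were tested and limma called 0 in any comparison, with a median of -0.13 in young mice. At an unadjusted p under 0.05, 3 were lower in young CR mice, as were 5.24% of all genes, and all are nonclassical heavy chains of the T or M region. H2-T10 was at 4.92 ± 0.566 FPKM in young AL and 3.08 ± 0.561 FPKM in young CR mice (-0.54, SE 0.15), H2-T22 at 29.0 ± 4.91 and 21.9 ± 1.61 FPKM (-0.38, SE 0.16), and H2-M3, which presents formylated peptides, at 10.9 ± 1.39 and 8.04 ± 1.63 FPKM (-0.41, SE 0.15). Procr, the endothelial protein C receptor with a class I fold, was higher at 1.24 ± 0.0458 against 0.742 ± 0.0747 FPKM (0.37, SE 0.11). The unequal-variance test gave H2-T10 and Procr, where it gave 8.65% of all genes in either direction. Q region genes outside the members had estimates near 0 in young mice, of -0.04 (SE 0.31) in H2-Q10 and -0.000583 (SE 0.15) in H2-Q1. The SE of H2-Q10 was wide, and 8.88% of the 75-base stretches of H2-Q7 also occurred in H2-Q10, so these genes can share reads. H2-Q10 was at 25.6 ± 1.75 and 25.0 ± 2.04 FPKM and H2-Q1 at 1.94 ± 0.440 and 1.93 ± 0.289 FPKM in young AL and young CR mice. H2-T24, another T region gene, was at -0.19 (SE 0.13), and H2-Q2 averaged 0.0796 FPKM over all mice and was not tested.

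**Figure D4:**
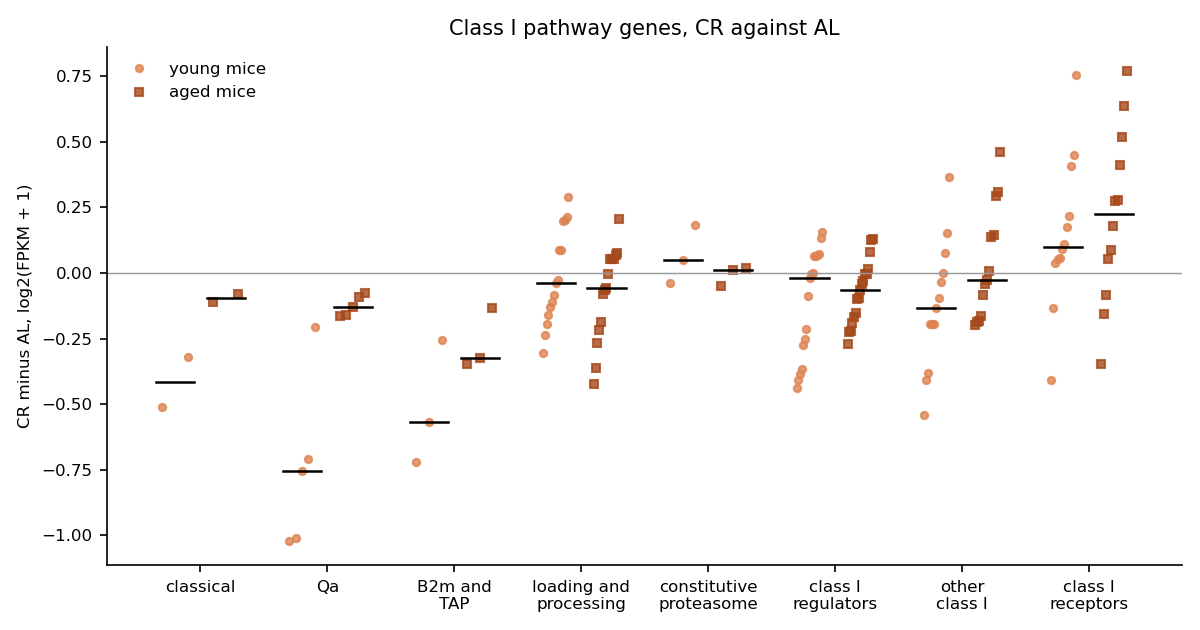
Log2 difference of CR and AL mice for each tested gene of the class I lists in young (circles) and aged mice (squares), with list medians (lines). The Qa genes of young mice have a median of -0.75, and the loading and processing genes have a median of -0.04 in young and -0.06 in aged mice.

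Interferon response genes and B cell markers were lower with the members in young CR mice, and their values are given beside them. All 19 tested genes of the interferon list were lower in young CR mice in their estimate, with a median of -0.76, and the groups were apart for 15 of them (9.38% of all genes tested). Limma called 0 of the 19, 3 were lower at an unadjusted p under 0.05 (5.24% of all genes), and the unequal-variance test gave 12 as lower (4.17% of all genes). The study describes an interferon term from these same mice, so the list is not independent evidence. Igtp and Iigp1, interferon-induced GTPases, were at -0.58 (SE 0.21) and -0.28 (SE 0.24) in young mice, and Mx1 and Xaf1 at -0.86 (SE 0.31) and -1.07 (SE 0.45). In aged mice the list's median was -0.13, with aged CR mouse 5 high and the other aged CR mice low. Without mouse 5 it was -0.83, and 15 of the 19 genes were at an unadjusted p under 0.05, as were 1143 of 13600 genes. Aged CR mice 6 and 7, at -0.62 and -0.50, had interferon lists within the range of the young CR mice, -0.67 to -0.32. Their Q region genes were at -0.00499 and 0.21, above the -0.83 to -0.62 of the young CR mice. Their light chain and transporter genes were at -0.17 and -0.17, between the -0.42 to -0.32 of the young CR mice and the 0.07 to 0.29 of all AL mice, and their classical heavy chains were at -0.05 and 0.05.

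B cell markers were lower in young CR mice for 8 of 8 genes, each without overlap as for 9.38% of all genes tested, with a median of -0.82. The study also describes B cell function among the genes lower in these same mice, so this list is not independent evidence either. Limma called 0 of the 8 markers, with 5 lower at an unadjusted p under 0.05 (5.24% of all genes) and 7 by the unequal-variance test (4.17% of all genes). Their summed level was 274 to 333 FPKM in young AL, 161 to 201 FPKM in young CR, 88.6 to 318 FPKM in aged AL and 133 to 170 FPKM in aged CR mice, and none was at 0. In aged mice the list's median difference was -0.26, and -0.70 without aged AL mouse 14. Young CR and aged CR mice overlapped in the B cell sum, and also in H2-T23 and Tap2, and were apart in the other 8 members. Aged AL mouse 14, with the lowest B cell sum, was the highest of the 3 aged AL mice in H2-K1, H2-D1, H2-Q5 and B2m and the lowest in H2-T23 and Tap2. The part of B cells or interferon genes in the members' difference was not tested.

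The other marker lists had medians in young and aged mice of 0.26 and 0.14 for T and NK cells, 0.16 and 0.37 for macrophages, 0.03 and 0.07 for erythroid cells, 0.16 and 0.02 for endothelial cells, -0.13 and 0.35 for osteoblasts and osteocytes and -0.01 and -0.42 for skeletal muscle, and neutrophil markers lay between -0.11 and 0.29 in young mice. Adipocyte markers had the largest medians, 1.32 and 1.09, with 6 of 6 genes higher in their estimate in both ages. Limma called 3 of them over both ages, where 0.258% of all genes were called. T and NK markers were higher in their estimate for 10 of 10 genes in young and 7 of 10 in aged mice, and macrophage markers for 7 of 8 and 8 of 8. Skeletal muscle markers were lower for 3 of 6 in young and 6 of 6 in aged mice. Without aged AL mouse 14 the aged medians of osteoblasts and osteocytes and of skeletal muscle were 0.08 and 0.11. The osteoblast and osteocyte median hides a lower sum, at 1282 to 1802 FPKM in young AL and 731 to 1075 FPKM in young CR mice. The unequal-variance test gave 2 of these genes as lower there (4.17% of all genes). The sum was 349 to 1453 FPKM in aged AL and 643 to 711 FPKM in aged CR mice. The part of these cells was not tested.

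**Figure D5:**
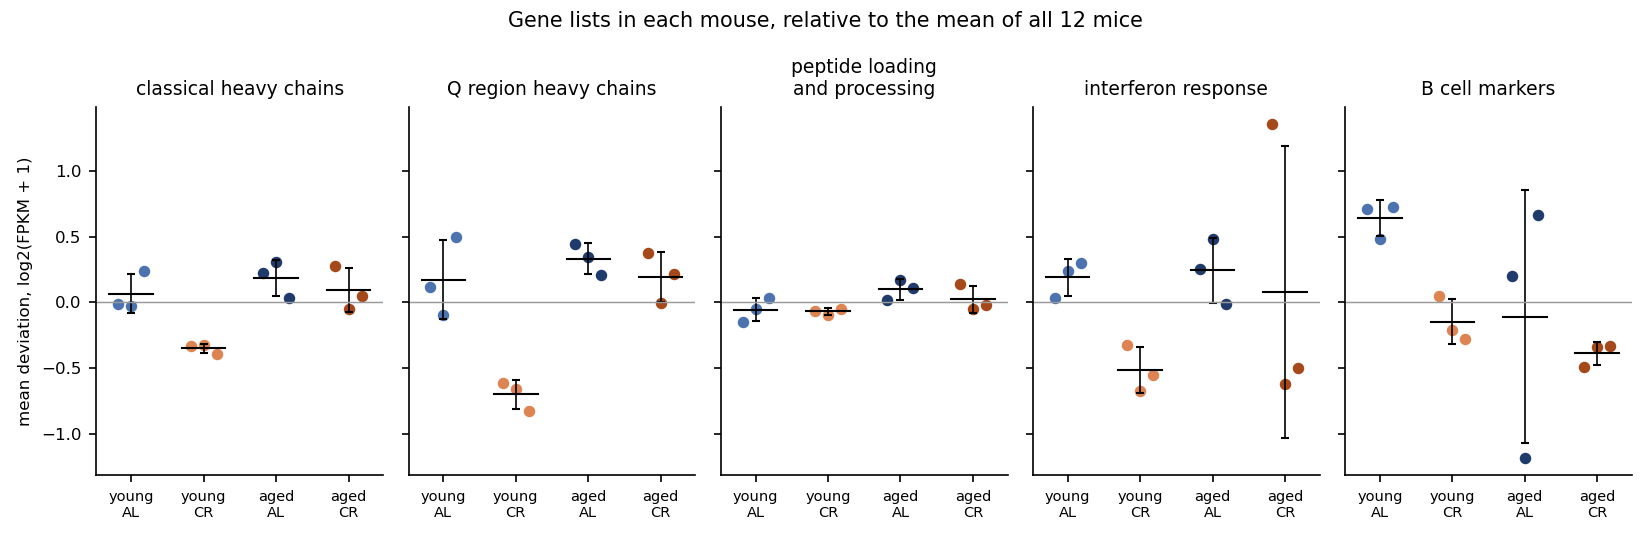
Level of each list in each mouse (points), as the average log2(FPKM + 1) of its genes after subtracting each gene's average over all 12 mice, with group mean (line) and SD (bar, n = 3). Classical and Q region heavy chains are lowest in the 3 young CR mice, the interferon list is at 1.36 in aged CR mouse 5, and B cell markers are at -1.19 in aged AL mouse 14.

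Over the 12 mice, the genes whose log2 level followed the classical heavy chains most closely, among 13580 non-member genes ranked, were Gm12250 (Pearson r 0.917), Ifi47 (0.915), Gbp8 (0.911), Igtp (0.910) and Apol11a (0.907). Those closest to the Qa heavy chains were H2-T10 (0.903), Ifi47 (0.889), Igtp (0.886), Gsap (0.881) and Ptk2b (0.878). Ifi47 and Igtp, interferon-inducible GTPases, were on both lists. The points share the 4 groups and the low young CR mice, so these values describe likeness over groups and mice together and were not tested.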

How the data were processed

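RNA of whole tibiae from 12 mice was sequenced by the authors from stranded mRNA libraries. Per the submitters' processing notes and the methods, reads were checked with FastQC 0.11.8 and MultiQC 1.6, trimmed with Trim Galore 0.5.0, aligned to mm10 with STAR 2.6.1 and quantified with StringTie 2.1.3b, and the authors quantile normalized the FPKM in R 4.1.1 before they were deposited. Columns of the 12 mice summed to 636207 to 636212 FPKM, and values of the same rank differed by at most 0.00936 FPKM. How the 4 technical repeats of a mouse were combined and how reads shared between genes were assigned are not given in the sources used here. The depth of each mouse is unknown, so precision is given as the spread between mice.

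Values were analysed as log2(FPKM + 1) for genes averaging at least 1 FPKM across the mice. 1 linear model with 4 group means was fitted with limma 3.58.1 (R 4.3.3) and a mean-dependent prior variance. A gene was called when its p, two-sided and adjusted by Benjamini-Hochberg over all 13590 genes tested, was under 0.05. The test assumes normal log2 values, which 3 mice per group cannot show. The members and gene lists were chosen with earlier results of these data known. Named were all members, fixed genes of the pathway (H2-Q10, H2-Q2, H2-Q1, H2-T22, H2-T24, H2-M3, Psmb8, Psmb9, Psmb10, Tapbp and Nlrc5), up to 4 genes per list by smallest p in any comparison, and the 5 genes most like each heavy chain group, and any other gene named is said to be so. Lists were class I members, peptide loading and processing, class I regulators, constitutive proteasome counterparts, other class I genes, class I receptors, interferon response and markers of 9 cell types. Of all listed gene identifiers 99.2% were found in GENCODE M21, from which positions and transcripts were taken, and promoter sequences came from RefSeq on GRCm38.p6. Alternatives were a pseudocount of 0.1, no filter, a quality weight per mouse, a fit of only the groups compared, each mouse left out, and the study's unequal-variance test on FPKM. Leaving out mouse 14 (aged AL) and mouse 5 (aged CR) together was chosen after the data were seen.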

Additional observations from a re-analysis of the deposited data

How the results depend on the processing

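The direction of every member in young mice, for diet over both ages and for age over both diets was kept under all alternatives run (110 of 110, 160 of 160 and 160 of 160 values). In aged mice it was kept in 106 of 110 values and for the interaction in 155 of 160, the exceptions being H2-K1, H2-Q5, H2-T23 and Tap2. The counts of calls were less stable. In young mice the main counts of 9 genes and 1 member became 5 and 0 with no filter, 304 and 7 with a weight per mouse, 73 and 2 in a fit of only the 2 groups, 159 and 6 without both mouse 14 (aged AL) and mouse 5 (aged CR), and 1175 and 5 by the unequal-variance test on FPKM, which gave 1 loading gene, and a pseudocount of 0.1 gave 2 members. In aged mice 0 genes became 1, 193, 48 and 487 with no filter, with weights, without both mice and by the unequal-variance test, with 0 members in each. For diet over both ages 35 genes became 9, 923 and 441 with no filter, with weights and without both mice, the last 2 with 8 and 5 members. For age 103 genes and 2 members became 44 and 0, 1798 and 7, and 213 and 2, with 2 loading genes under weights. For the interaction 0 genes became 1 under weights and 1 without both mice. Leaving out each mouse gave 0 to 44 genes and 0 to 3 members in young mice (44 without aged AL mouse 14), 0 to 7 genes in aged mice, 8 to 222 genes and 0 to 5 members for diet (222 and 5 without aged CR mouse 5), 21 to 221 genes, 0 to 3 members and 0 to 1 loading genes for age, and 0 to 1 genes for the interaction. The excess of classical over Qa heavy chains in young CR over young AL mice, 0.32, was 0.14 with summed FPKM and 0.46 without H2-T23. For age it was -0.038 with summed FPKM in place of -0.16, and for the interaction -0.12 and -0.41 with those 2 changes in place of -0.29. The cause was not tested in any of these. No paired analysis was possible because the mouse numbers are not shared between groups and the technical repeats are not separate columns. Depth per mouse is unknown, so counting error could not be separated from the spread between mice.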

Other observations

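Receptors that bind class I molecules were measured in the same mice. Of 15 listed genes 12 were tested, and limma called 0 in any comparison, with 1 lower at an unadjusted p under 0.05 in young mice (Lilrb4a), as were 5.24% of all genes, and 3 higher in aged mice, as were 4.5%. The unequal-variance test gave 3 and 2, where it gave 8.65% and 3.58% of all genes. In young mice these were Cd8a and Cd8b1, both higher, and Lilrb4a, lower. In aged mice they were Klra3 and Klrc2, both higher. Cd8b1 and Klrc2 are named only because that test gave them. The median log2 difference of the 12 tested receptor genes between CR and AL was 0.10 in young and 0.23 in aged mice, on the other side of 0 from that of the heavy chains. Klra3 and Klra4, inhibitory or activating Ly49 receptors of natural killer cells, were at 2.64 ± 0.484 and 1.88 ± 0.261 FPKM in young AL mice and at 3.24 ± 0.603 and 2.84 ± 0.689 FPKM in young CR mice (SD, n = 3). In aged mice Klra3 was at 2.87 ± 0.722 FPKM under AL and 4.97 ± 0.787 FPKM under CR, without overlap, a log2 difference of 0.64 (SE 0.17, limma adjusted p = 0.406) that was 0.47 without aged AL mouse 14. Cd8a, a chain of the T cell coreceptor for class I, was at 1.04 ± 0.229 FPKM in young AL and 1.78 ± 0.232 FPKM in young CR mice, and at 2.27 ± 0.793 and 3.91 ± 1.99 FPKM in aged AL and aged CR mice. Its difference was 0.45 (SE 0.29) in young and 0.52 (SE 0.29) in aged mice, neither beyond 2 SE, and 0.92 in aged mice without aged CR mouse 5. Lilrb4a, an inhibitory receptor of myeloid cells, was lower in its estimate in both ages, at -0.41 (SE 0.17) and -0.35 (SE 0.17), with adjusted p-values of 0.423 and 0.680 by limma, and at -0.20 in aged mice without aged AL mouse 14 and -0.52 without aged CR mouse 5.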
